A study of Mus musculus with 16 samples.

Results

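The interferon regulatory factor genes encode a family of transcription factors, and the question asked here was how Irf7 stood against its own relatives in the mouse retina. Members were chosen by name, as the symbols Irf1, Irf2, Irf3, Irf4, Irf5, Irf7, Irf8 and Irf9 of the deposited table of all genes, which gave 8 genes of 25905 symbols. The study set retinas of mice flown on the International Space Station for just over a month against retinas of mice kept on the ground in the same type of housing. All animals were wild type male C57BL/6 mice, 10 weeks old at launch, and differed by treatment, with 8 libraries labelled space flight and 8 labelled ground control. Each library was made with a stranded kit from 100 ng of total RNA of a dissected right-eye retina. The value used for each gene is the authors' mean normalized count over all 16 libraries of both groups. It carries no spread between mice, and columns per library, which match no sample label, were not used here. No SD or p-value is therefore given, space flight and ground control were not compared, and the depth of each library was not analysed here. To set genes against each other, the mean normalized count was divided by the length of the longest protein-coding transcript in kilobases, and this quotient is the level per kb.

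Interferon regulatory factors bind DNA through a conserved domain with a repeated tryptophan motif and recognise the GAAA repeats of interferon-stimulated response elements. Irf3 and Irf7 carry the signal of nucleic acid sensors to the interferon genes, Irf9 joins STAT proteins to drive the genes that interferon switches on, and Irf4, Irf5 and Irf8 are best known from cells of the immune system. In the retina, microglia and Müller glia are known to answer interferon, and Irf8 is a factor on which microglia depend.

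The tissue label was checked against cell type markers, and the retina was plain in them. All 5 rod markers had a mean normalized count of at least 10, led on the per kb scale by the rod transducin gene Gnat1 at 66356 per kb. The same held for 4 of 4 cone markers, led by the short-wavelength opsin Opn1sw at 1162 per kb, and for 4 of 4 bipolar cell markers, among them Prkca at 504 per kb. Of the 4 Müller glia markers, 3 passed the same line, led by glutamine synthetase, Glul, at 6252 per kb, while Rlbp1 had a mean normalized count of 1.39. Of the endothelial markers 3 of 4 passed, with Kdr at 229, Cldn5 at 36.1 and Cdh5 at 24.9 per kb. Markers of neighbouring tissue were counted too. Of the pigment epithelium markers 3 of 4 passed, led by Ttr at 455 per kb, and of the lens markers 3 of 3, led by Cryaa at 709 per kb. In such bulk tissue, a low level of a family member in the whole retina and a high level in few of its cells cannot be told apart, and neither can fewer cells of a type and less RNA per cell.

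Promoter sequence was examined first, since several members are themselves known targets of interferon. All 8 genes matched the RefSeq promoter table (assembly GRCm38.p6) with 11 start sites, and the 250 bases before each start were searched on both strands for the interferon-stimulated response element core (GAAA, any 2 bases, GAAA), the gamma-activated site TTCNNNGAA bound by STAT dimers, and the TATA box TATAAA. Over all 32851 promoters of that length, the shares with a match were 2.98%, 7.02% and 12.4%. No match overlapped another in the family. Sequence is shown for Irf7, on which the question turns, and for the 3 members with an interferon-type motif, each 5′ to 3′ on the strand of the gene, ending where the first annotated exon of the gene begins, with motif matches in capitals. Positions of matches are counted back from the RefSeq start.
Irf7: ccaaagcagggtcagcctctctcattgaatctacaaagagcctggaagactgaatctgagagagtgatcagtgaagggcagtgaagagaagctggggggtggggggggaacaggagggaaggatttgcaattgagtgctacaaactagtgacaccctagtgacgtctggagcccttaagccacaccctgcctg
Irf2: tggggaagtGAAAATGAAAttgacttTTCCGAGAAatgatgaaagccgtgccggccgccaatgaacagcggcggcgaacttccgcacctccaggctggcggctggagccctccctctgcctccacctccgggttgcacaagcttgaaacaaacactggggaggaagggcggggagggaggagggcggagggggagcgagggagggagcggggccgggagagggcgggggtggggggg
Irf1: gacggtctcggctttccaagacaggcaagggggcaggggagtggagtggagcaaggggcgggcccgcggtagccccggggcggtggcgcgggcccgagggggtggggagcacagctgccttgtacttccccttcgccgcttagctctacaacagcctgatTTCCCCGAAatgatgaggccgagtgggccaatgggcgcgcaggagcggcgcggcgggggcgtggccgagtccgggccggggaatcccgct
Irf8: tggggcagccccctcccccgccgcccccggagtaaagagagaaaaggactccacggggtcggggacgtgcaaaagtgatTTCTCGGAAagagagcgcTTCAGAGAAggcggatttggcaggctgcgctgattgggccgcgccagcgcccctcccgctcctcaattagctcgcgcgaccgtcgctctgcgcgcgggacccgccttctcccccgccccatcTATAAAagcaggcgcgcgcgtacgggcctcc

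The Irf7 stretch is chr7:141266482-141266674 on the minus strand and holds none of the 3 motifs. A TATAAA lies 29 to 24 bases before the RefSeq start of Irf7, in the 57 bases of its window that GENCODE places inside the first exon, so the annotations differ on whether it is upstream. Irf2, at chr8:46739495-46739731 on the plus strand, was the member with an interferon-stimulated response element, GAAAATGAAA, 241 to 232 bases before the start. It also has a gamma-activated site, TTCCGAGAA, 224 to 216 bases before the start, and 21 bases of its window are exon of Gm16675, a noncoding gene read the other way. The Irf1 stretch, chr11:53769764-53770013 on the plus strand, lies outside every annotated gene and has the gamma-activated site TTCCCCGAA 90 to 82 bases before the start. That of Irf8, chr8:120736108-120736357 on the plus strand, lies in an intron of the long gene model Gm20388 and has gamma-activated sites at 171 to 163 and at 153 to 145 bases and a TATAAA at 31 to 26 bases before the start. Irf4 had a TATAAA at 26 to 21 bases, and the windows of Irf3, Irf5 and Irf9, like those at the other start sites of Irf1 and Irf8, had no match to these letters. Not all of these windows are upstream sequence in GENCODE: 250 and 88 bases of the Irf9 windows and 56 bases of the other Irf1 window lie in exons of the gene itself, and 181 bases of the Irf3 window in exons of Bcl2l12. The matches describe sequence and were not set against binding.

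Irf7, the factor that amplifies type I interferon production, was the third most abundant of the 8 members. Its mean normalized count was 193 on a transcript of 2237 bases, a level of 86.2 per kb. On that scale Irf7 lay above 76.7% of the 19953 protein-coding symbols with an annotated length, whose median level was 8.84 per kb. Among those counted as 1 transcript model, as Irf7 was, it lay above 72.9%. Irf3, the partner of Irf7 that waits in the cytoplasm of resting cells until TBK1 phosphorylates it, had a mean normalized count of 268 and a level of 132 per kb, above 83.6% of protein-coding symbols. The level per kb of Irf3 was thus 1.53 times that of Irf7, and above 80.8% of protein-coding symbols counted as 1 model.

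**Figure D1:**
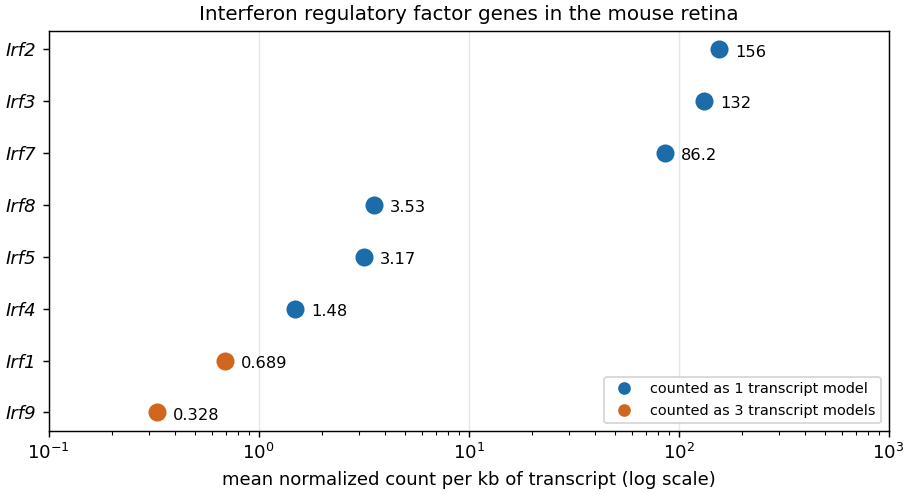
Level of each interferon regulatory factor gene in the retina, as the mean normalized count over all libraries per kb of the longest protein-coding transcript (horizontal log axis), 1 point a gene, with genes counted as 1 transcript model in blue and as 3 models in orange. Irf2, Irf3 and Irf7 stand at 156, 132 and 86.2 per kb, and the next member, Irf8, at 3.53 per kb.

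Irf1 and Irf2 are the founding pair of the family, an activator induced by interferon gamma and a factor that competes with it for the same DNA and mostly represses. In the deposited means they were far apart. Irf2 was the most abundant member, with a mean normalized count of 391 and a level of 156 per kb. This was above 86.2% of protein-coding symbols, or 83.8% of those counted as 1 model, and 1.82 times the level of Irf7. Irf1 had a mean normalized count of 1.47 and a level of 0.689 per kb, which put Irf7 125 times higher per kb. The ratios to Irf7 depend on the length used: divided by the shortest annotated protein-coding transcript, Irf2 was at 4.32 times and Irf3 at 2.83 times the level of Irf7, with the order of Irf2, Irf3 and Irf7 as before.

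The members best known from immune cells formed a middle group well under Irf7. Irf8, which microglia and other myeloid cells depend on, had a mean normalized count of 10.0 and a level of 3.53 per kb, so that Irf7 was 24.4 times higher per kb. Irf5, which acts downstream of toll-like receptors in macrophages, had a mean normalized count of 7.11 and a level of 3.17 per kb, with Irf7 27.2 times higher. Irf4, a factor of lymphocytes and dendritic cells, had a mean normalized count of 7.07 and a level of 1.48 per kb, with Irf7 58.1 times higher. On the per kb scale Irf8, Irf5 and Irf4 lay above 43.6%, 43.0% and 38.3% of protein-coding symbols, each under the median gene. Among those counted as 1 model the shares were 38.0%, 37.4% and 33.5%. No member had a level between those of Irf8 and Irf7. With the shortest transcript, the levels of Irf8, Irf5 and Irf4 were 0.0815, 0.0791 and 0.0765 of that of Irf7, against 0.0409, 0.0368 and 0.0172 with the longest, so the spacing within this group rests on the length chosen. For Irf4, coding length gave 0.0373, which put it before Irf5, and no division by length gave 0.0367.

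Markers of the cells in which these members are best known were examined beside them. Of 8 markers of microglia and macrophages, 6 had a mean normalized count of at least 10, and their sum was 245. The most abundant was the growth factor receptor Csf1r, with a mean normalized count of 87.6. Per kb the complement gene C1qb was the highest, at 37.4, and 0 of the 8 reached the level of Irf7. The microglial receptor gene P2ry12 stood at 10.6 per kb and Tmem119 at 5.16 per kb, where Irf8 was at 3.53 per kb. Aif1 had a mean normalized count of 4.08 and a level of 4.66 per kb, and Itgam was listed at 0. Of 6 lymphocyte markers, 0 had a mean normalized count of at least 10 and their sum was 4.44, the most abundant being Cd4 at 2.20, with Cd3e and Cd8a listed at 0. The part of microglia in the levels of Irf8, Irf5 and Irf7 was not tested.

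**Figure D2:**
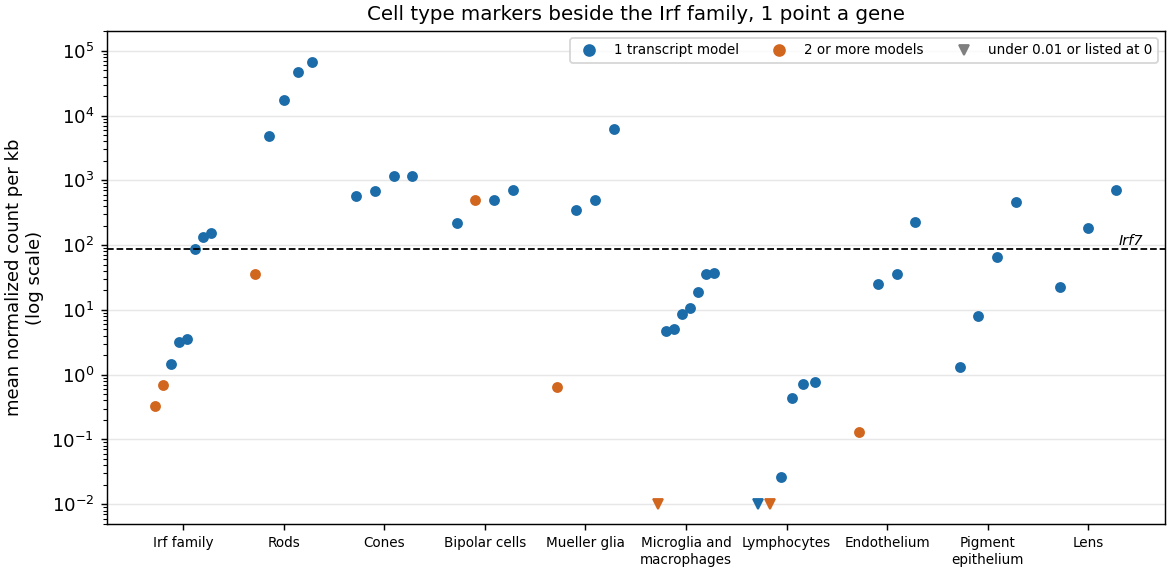
Mean normalized count per kb (vertical log axis) of the 8 family members and of each cell type marker, 1 point a gene, blue for genes counted as 1 transcript model and orange for more, with triangles for genes under 0.01 per kb or listed at 0. The dashed line is the level of Irf7, 86.2 per kb, which 0 of 8 microglia and macrophage markers and 0 of 6 lymphocyte markers reach and 4 of 5 rod markers pass.

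Irf9, the DNA-binding subunit of the complex it forms with STAT proteins, was the lowest member. Its mean normalized count was 0.971 and its level 0.328 per kb, above 30.1% of protein-coding symbols, and Irf7 was 263 times higher per kb. Its partner Stat2 was at 62.0 per kb, above Irf9. Against Irf7 the order of Stat2 turned with the scale, lower per kb and higher in mean normalized count, 273 against 193.

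Irf9 and Irf1, the 2 lowest members, differed from the other 6 in how they had been counted. The authors counted reads against 31616 transcript models for the 25905 symbols, and Irf1 and Irf9 were each present as 3 models, while every other member was present as 1. Within both genes the models share most of their exonic bases. Of 3337 exonic bases of Irf1, 1237 (37.1%) lie in only 1 of its models, and of 3102 bases of Irf9, 643 (20.7%) do. Across protein-coding symbols, the 16796 counted as 1 model had a median level of 19.1 per kb, and the 634 counted as 3 models a median of 0.516 per kb, with quartiles of 0.0118 and 3.34 per kb. Irf1 and Irf9, at 0.689 and 0.328 per kb, lie inside that range. They also lie inside the quartiles of symbols counted as 1 model, 0.193 and 96.9 per kb, so their place does not tell these classes apart. A mean normalized count under 2 was found for 52.1% of symbols with 3 models and for 31.5% of those with 1.

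The level also followed the share of bases that the models do not have in common. Among symbols with at least 2 models, all of them linked to the reference annotation (2402 of 3166), the median level was 0.0398 per kb where under 5% of exonic bases lay in 1 model only, and 3.90 per kb where at least 40% did. In the class from 20% to 40%, which holds both Irf1 and Irf9, the median of 464 symbols was 0.747 per kb. Single genes with several models differed widely. Cell type markers counted as 2 models ran from Trpm1 at 502 per kb and Nrl at 35.5 per kb through Rlbp1 at 0.648 and Pecam1 at 0.130 per kb to Itgam and Cd8a, listed at 0. How means of several models were joined into a symbol is not given in the sources used here, and the part of counting in the levels of Irf1 and Irf9 was not tested. The levels of these 2 members are therefore given as listed, and the place of Irf7 against Irf1 and Irf9 carries this limit.

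**Figure D3:**
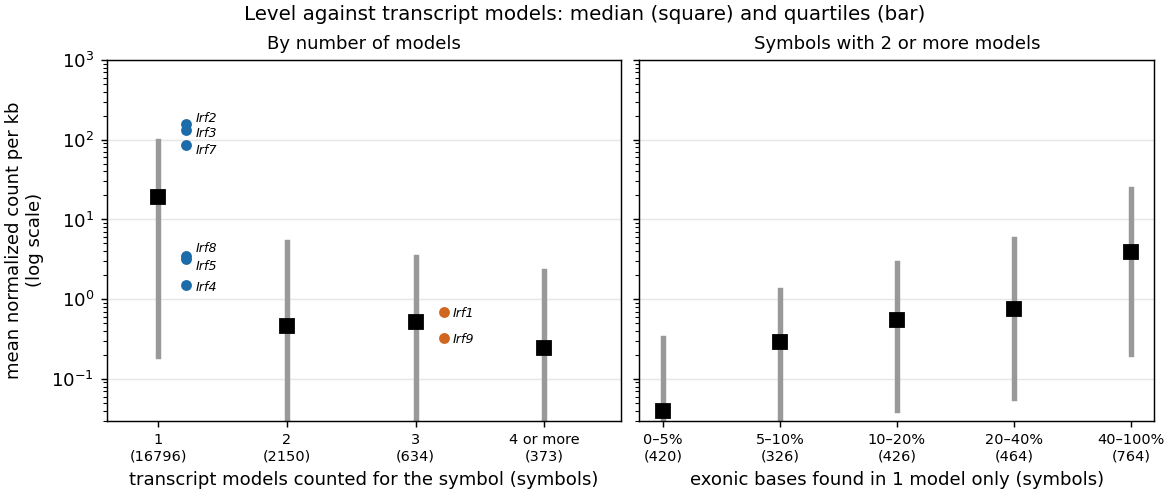
Mean normalized count per kb (vertical log axis) of protein-coding symbols by the number of transcript models counted (left) and, for symbols with 2 or more models, by the percent of exonic bases found in 1 model only (right). Squares are medians and bars run from the lower to the upper quartile, ending at the axis where the lower quartile is under 0.03, and points are the family members, blue for 1 model and orange for 3. The median falls from 19.1 per kb with 1 model to 0.516 per kb with 3, near Irf1 at 0.689 and Irf9 at 0.328 per kb.

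Overlap with neighbouring genes was small for every member. Irf9 shares 123 exonic bases (3.97%) with Rnf31 on the same strand, Irf1 shares 100 bases with Gm17334 on the other strand, and Irf3 shares 8 bases with Bcl2l12 on the other strand. The other members, Irf7 among them, share 0 bases with exons of another gene. Whether the counting used strand is not given in the sources used here, so reads from bases shared across strands cannot be assigned to either gene. For the bases that Irf9 and Rnf31 share on the same strand, counting by strand would not assign them either.

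The genes around the family were then set against Irf7 on the per kb scale. Of 100 listed genes of interferon signalling, 14 had a level above that of Irf7, where 23.3% of all protein-coding symbols with a length did. A mean normalized count of at least 10 was found for 46 of the 100 and for 4 of the 8 family members, against 56.0% of all protein-coding symbols, so neither share is above that of genes at large. Without division by length, 20 of the 100 were above Irf7. The change is 7 genes that were above Irf7 only without that division, among them Stat2, Traf6, Tbkbp1, Ptpn1, Ptpn2 and Trim25, and 1, Ifitm3, that was above it only per kb. Of the listed genes, 18 were counted as several models, and 61.1% of these had a mean normalized count under 2, against 30.5% of the 82 counted as 1 model, so low values of the former share the limit given for Irf1 and Irf9.

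The interferon ligand genes, among them type I genes that the activated Irf3 and Irf7 switch on, were at or near 0. Of 15 ligand genes, 12 were listed at 0, the type I gene Ifnb1 among them, and the other 3, Il28a, Ifnz and Ifng, were at 0.265, 0.0812 and 0.0518 per kb. The highest of them, Il28a, was under the lowest family member, Irf9 at 0.328 per kb. A listing at 0 is given as such, since Ptpn11, a phosphatase gene used by most cells, was listed at 0 as well, though it was counted as 2 models and all 15 ligand genes as 1.

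The receptor side that leads to Irf9 was well counted. Of 11 receptors, kinases and STATs, 9 had a mean normalized count of at least 10, and 3 were above Irf7 per kb, namely the kinase gene Jak1 at 303 per kb and the receptor genes Ifngr1 at 126 and Ifnar1 at 113 per kb. The second chain of the type I receptor, Ifnar2, was at 6.99 per kb and the kinase Tyk2 at 22.7 per kb, both under Irf7. The lowest was Jak2 at 0.0255 per kb, a gene counted as 2 models, as was Ifnar2.

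Sensors upstream of Irf3 and Irf7 were scarcer than the factors themselves. Of 11 nucleic acid and toll-like sensors, 0 were above Irf7 per kb, and 2 had a mean normalized count of at least 10. These were the RNA sensor Ddx58, known as RIG-I, at 15.2 per kb and the endosomal receptor Tlr3 at 13.02 per kb, which set Irf7 5.66 times and 6.62 times higher. Dhx58 followed at 2.91 per kb. The lowest was Ifih1 at 0.0509 per kb, counted as 2 models.

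Adaptors and kinases that lie between the sensors and Irf3 or Irf7 ranged widely. Of 15 genes, 8 had a mean normalized count of at least 10, and 2 were above Irf7, namely Azi2, counted as 2 models, at 128 per kb and the kinase gene Tbk1, whose product phosphorylates both factors, at 118 per kb. The Tbk1-binding gene Tbkbp1 came next at 62.3 per kb, and the lowest was Traf3 at 0.0284 per kb, counted as 2 models. The related kinase gene Ikbke, named after its value was seen, was at 0.618 per kb.

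**Figure D4:**
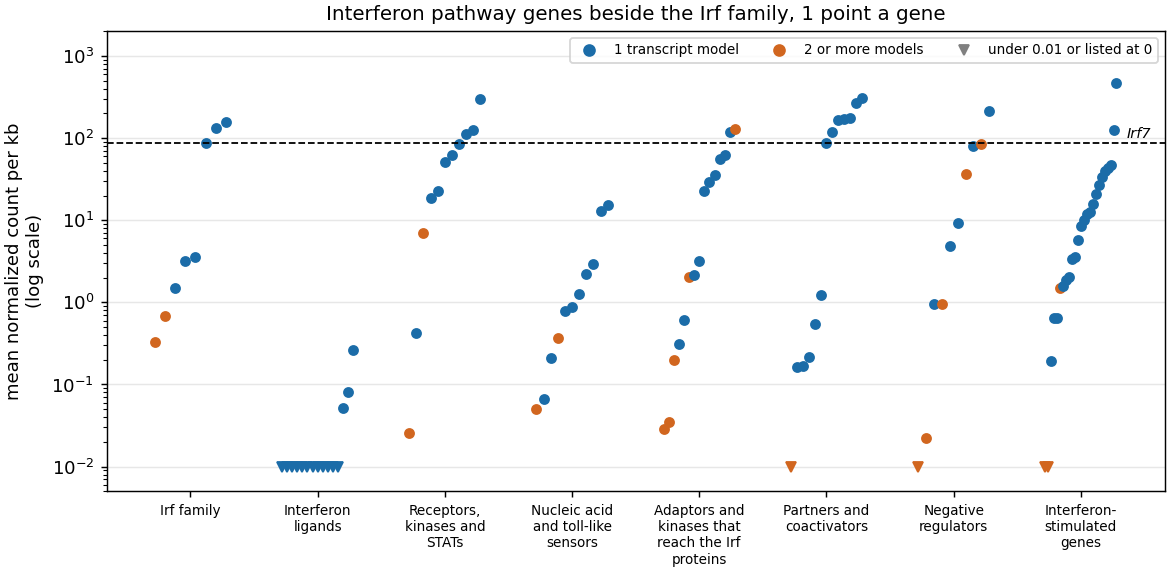
Mean normalized count per kb (vertical log axis) of the 8 family members and of 100 genes of interferon signalling in 7 lists, 1 point a gene, blue for genes counted as 1 transcript model and orange for more, with triangles for genes under 0.01 per kb or listed at 0. Above the dashed line at the level of Irf7, 86.2 per kb, lie 14 of the 100 genes, 6 of them partners and coactivators and 0 of them ligands or sensors.

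Partners and coactivators held the genes most often above Irf7, 6 of 13. The acetyltransferases that Irf3 and Irf7 recruit were the highest, Ep300 at 305 and Crebbp at 267 per kb. The third was Irf2bpl, listed under the older name 6430527G18Rik, at 173 per kb, with its relatives Irf2bp1 at 172 and Irf2bp2 at 167 per kb. Products of the last named pair bind Irf2 as corepressors, and both genes were at a level per kb above that of Irf2, 156. The DNA-binding factors of this list lay far apart. Jun, at 120 per kb, was above Irf7 and Fos, at 86.1 per kb, level with it, while Spi1, listed as Sfpi1, was at 1.24 per kb and Batf3 at 0.165 per kb. Tcf3, counted as 8 models, was listed at 0.

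Negative regulators of the pathway were mixed. Of 10 genes, 5 had a mean normalized count of at least 10, and 1 was above Irf7, the STAT inhibitor gene Pias1 at 215 per kb. The phosphatase genes Ptpn2, counted as 2 models, and Ptpn1 followed at 83.8 and 80.3 per kb, close to Irf7 at 86.2 per kb. The lowest, Ptpn11, counted as 2 models, was listed at 0.

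Of the interferon-stimulated genes, all but B2m and Ifitm3 were under Irf7 per kb, while without division by length all but B2m and Trim25 were. Their median level was 8.41 per kb, against 8.84 per kb for all protein-coding symbols. Among genes counted as 1 model, the median was 10.9 per kb for 22 of the list and 19.1 per kb for protein-coding symbols. Of 25 genes, 15 had a mean normalized count of at least 10, and 2 were above Irf7. B2m, which encodes the light chain of class I histocompatibility molecules, was at 470 per kb and the antiviral membrane gene Ifitm3 at 127 per kb. The ubiquitin ligase gene Trim25 followed at 47.1 per kb. Tap1, counted as 2 models, and Ifi27, listed as Ifi27l1 and counted as 5 models, were listed at 0. Irf7 is itself an interferon-stimulated gene, and its level per kb was 10.2 times that of Xaf1, the gene at the median of the list.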

How the data were processed

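Retinal RNA of 16 libraries was measured, 8 per group. The authors used Trimmomatic for trimming, TopHat2 for mapping to a mouse build earlier than GRCm38 and HTSeq for counting per transcript model, and normalized the counts with DESeq2 1.22.2 in R 3.5.1. The signal value used here is the deposited mean over all libraries of the authors' normalized counts. The 5 other columns of that table hold the authors' log2 fold-change, its standard error, the test statistic and p-values of flight against ground control, and were not used. The 2 count tables hold 16 columns each, named with laboratory codes that match no sample label, so all 32 were left out and the test planned on counts could not be run. Depth per sample was not analysed here.

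Levels were divided by transcript length from GENCODE M21 (GRCm38), which served for lengths, exon overlap and names only. Symbols were matched directly or through an older symbol with the same RefSeq transcript. Protein-coding symbols have a counted NM model. Lines at a mean normalized count of 10 and of 2 served only for counts. Alternatives were the shortest transcript, coding length (from GENCODE coding segments) and no division by length. Added after seeing the data were the length of the counted models and genes counted as 1 model only. Members and lists were chosen with earlier results of these data known.

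Named are all members, the 3 highest and the lowest gene per kb of each pathway list, and the receptors, kinases and STATs of type I signalling. Values of some of these genes are not reported here. Markers and other genes named were chosen after their values were seen. Lists were interferon ligands, receptors with kinases and STATs, sensors, adaptors, partners, negative regulators, interferon-stimulated genes and markers of 9 cell types. Steps were tested on simulated data. Python 3.11.15, numpy 2.4.6, pandas 2.3.3 and matplotlib 3.10.9 were used.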

Additional observations from a re-analysis of the deposited data

How the results depend on the processing

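Irf7 was rank 3 of the 8 members with each of the 4 alternatives for length. Keeping only the 6 members counted as 1 model removes Irf1 and Irf9, which rank under Irf7, and so could not change its rank. Of 28 ratios of a member to Irf7 under those alternatives for length, 21 were within 1.5 times of the value given, 7 were further off and 0 were on the other side of 1. The 7 were Irf2 and Irf3 at 4.32 and 2.83 with the shortest transcript, Irf4, Irf5 and Irf8 at 0.0765, 0.0791 and 0.0815 with it, and Irf4 at 0.0373 with coding length and 0.0367 without division. They follow from the lengths divided by. Pathway genes above Irf7 numbered 14, 20 without division by length, where 7 genes crossed to above Irf7 and 1 to under it, and 13 among genes counted as 1 model. The length of the counted models and the restriction to 1 model were chosen after seeing the data.

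No paired analysis was possible because the values are means over all libraries, and the replicate numbers that the groups share in the labels could not be matched to count columns. The alternatives planned for the test of space flight against ground control, another count model, no filter on low counts and a replicate block, were not run for the same reason. Irf1 and Irf9 have under 2 normalized counts on average, and the pooled means give no error for their ratios to Irf7. Depth was not analysed here.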
